A study of Homo sapiens with 4 samples.

Results

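The thrombospondins and matricellular proteins described here are 10 genes, chosen by gene name from the 57820 gene models of the deposited tables: the thrombospondins THBS1, THBS2, THBS3 and THBS4, the collagen-binding glycoprotein SPARC, the CCN proteins CYR61 and CTGF, tenascin-C (TNC), periostin (POSTN) and fibronectin (FN1). The set was selected on the deposited expected counts and TPM of BRD9 KO against LacZ libraries, with that comparison already known, so the members' differences are given as a description, without p-values, and nothing is supported with them. RNA sequencing was done on G401, a cell line from a rhabdoid tumor of the kidney that lacks SMARCB1. There were 4 libraries, 2 labelled BRD9 KO and 2 labelled LacZ as controls, all from G401 cells in DMEM with serum. The study's methods describe stable Cas9 lines into which guides were brought by infection, and its text says that G401 clones deficient in BRD9 could not be isolated. The labels do not say which cells of such a culture the BRD9 KO libraries hold. The day of harvest is not given in the sources used here, and neither is what the LacZ control construct was.

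Matricellular proteins are secreted into the matrix around cells, where most of them act less as building material than as signals: they bind collagens, growth factors, proteases and receptors and change how cells attach, spread and respond. Thrombospondin-1 is a well-known inhibitor of blood vessel growth and an activator of latent TGF-beta, CYR61 and CTGF are classical target genes of the YAP and TEAD transcription regulators, and fibronectin is a structural glycoprotein to which integrins attach cells. Kidney rhabdoid tumor cells are mesenchymal in many features while also making simple-epithelium keratins.

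Total counts ran from 15053195 to 19559200 per library. BRD9 itself stood at 29.4 and 26.7 CPM (counts scaled to the library's total, with the TMM factors of edgeR) in BRD9 KO replicates 1 and 2 and at 48.1 and 53.7 CPM in the LacZ control pair, and its log2 fold change was -0.86 (SE 0.07, adjusted p = 2.84e-09 in edgeR's quasi-likelihood test). SMARCB1 had 0 counts in all 4 libraries, and PTPRC, CD3E, HBB, CDH5 and KDR, which mark blood and endothelial cells, were at 0. The endothelial marker VWF was not at 0, with 41 and 40 counts in BRD9 KO and 40 and 52 in LacZ control. The blood marker CD14 had 4 and 0 counts in BRD9 KO and 1 and 1 in LacZ control. PECAM1, a further endothelial marker, was not found among the gene models. The mesenchymal marker VIM was abundant, with lower values in BRD9 KO (1174 and 1179 TPM, RSEM's length-adjusted unit) than in LacZ control (1646 and 1650 TPM). Of the epithelial markers, EPCAM, CDH1 and KRT19 were below 1 TPM while KRT8 and KRT18 carried nearly all of a summed level that was 6873 and 6909 TPM in BRD9 KO and 5174 and 5222 TPM in LacZ control. The summed fibroblast markers stood at 247 and 248 TPM in BRD9 KO and at 292 and 296 TPM in LacZ control, with DCN at 0 and LUM at 1 count at most. That sum held genes of differing direction: COL3A1 was lower in BRD9 KO (139 and 141 against 203 and 203 TPM), THY1 was higher (33.3 and 27.7 against 18.6 and 17.6 TPM), PDGFRB was 60.6 and 65.3 against 56.2 and 60.2 TPM, and PDGFRA overlapped between groups. The part of these marker differences in the results below was not tested.

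Promoters of 4 members are shown first because they hold the letters GGAATG, the core recognized by TEAD factors. Each is the 250 bases before the RefSeq start site on GRCh38.p14, read 5′ to 3′ on the strand of the gene, with capitals for matches to GGAATG or to the TATA box letters TATAAA on either strand. They lie at chr15:39580829-39581078 on the plus strand (THBS1) and, on the minus strand, at chr6:169253847-169254096 (THBS2), chr5:151686916-151687165 (SPARC) and chr6:131951373-131951622 (CTGF, named CCN2 in RefSeq).
THBS1: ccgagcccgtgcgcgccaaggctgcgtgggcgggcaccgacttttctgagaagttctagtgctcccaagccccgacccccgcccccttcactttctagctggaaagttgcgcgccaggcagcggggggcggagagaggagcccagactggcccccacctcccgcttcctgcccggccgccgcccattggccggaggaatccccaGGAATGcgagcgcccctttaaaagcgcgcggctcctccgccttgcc
THBS2: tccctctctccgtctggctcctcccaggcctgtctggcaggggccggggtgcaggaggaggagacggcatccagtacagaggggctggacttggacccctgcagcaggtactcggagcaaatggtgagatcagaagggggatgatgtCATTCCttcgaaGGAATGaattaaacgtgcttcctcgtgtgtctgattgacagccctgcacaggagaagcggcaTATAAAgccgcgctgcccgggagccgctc
SPARC: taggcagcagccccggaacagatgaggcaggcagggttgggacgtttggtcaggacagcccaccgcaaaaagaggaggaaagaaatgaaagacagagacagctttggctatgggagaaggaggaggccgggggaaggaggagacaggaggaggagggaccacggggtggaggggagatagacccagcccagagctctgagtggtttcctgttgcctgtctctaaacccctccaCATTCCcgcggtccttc
CTGF: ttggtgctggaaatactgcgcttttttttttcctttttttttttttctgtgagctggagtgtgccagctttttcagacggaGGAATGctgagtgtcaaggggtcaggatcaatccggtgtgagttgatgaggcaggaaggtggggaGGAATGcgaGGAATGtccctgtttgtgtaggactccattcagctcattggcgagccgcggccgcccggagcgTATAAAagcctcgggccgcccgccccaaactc

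RefSeq start sites were matched for 9 of the 10 members, with 2 starts each for THBS3 and THBS4, and not for CYR61. In the window from 250 bases before to 50 after the start, GGAATG was found on either strand 3 times in CTGF, 2 times in THBS2 and 1 time each in THBS1 and SPARC, and it was found in 14.03% of the 35116 RefSeq windows of this length. The THBS1 match lay 46 to 41 bases before the start and the SPARC match 17 to 12 bases before it. In CTGF the matches began 169, 104 and 95 bases before the start, all on the strand of the gene. In THBS2 the pair of matches lay on opposite strands, beginning 103 and 91 bases before the start. The TATA box letters TATAAA were present in CTGF, THBS2 and POSTN, against 11.5% of all windows, and lay between 32 and 24 bases before the start in each, with a further match in POSTN. The AP-1 letters TGACTCA were present in POSTN alone (4.95% of all windows), and no member held a CArG box, the site of serum response factor (1.29% of all windows). GC boxes, GGGCGG with overlapping matches counted separately, were found 6 times in FN1, 4 times in THBS1 and 3 times in CTGF, and 45.0% of all windows held at least one. The GC content was 76.7% in the FN1 window, 70.0% in THBS1 and 39.0% in POSTN, against a median of 58.7%. A match is a run of letters and not a measured binding site, and its part in the members' differences was not tested.

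**Figure D1:**
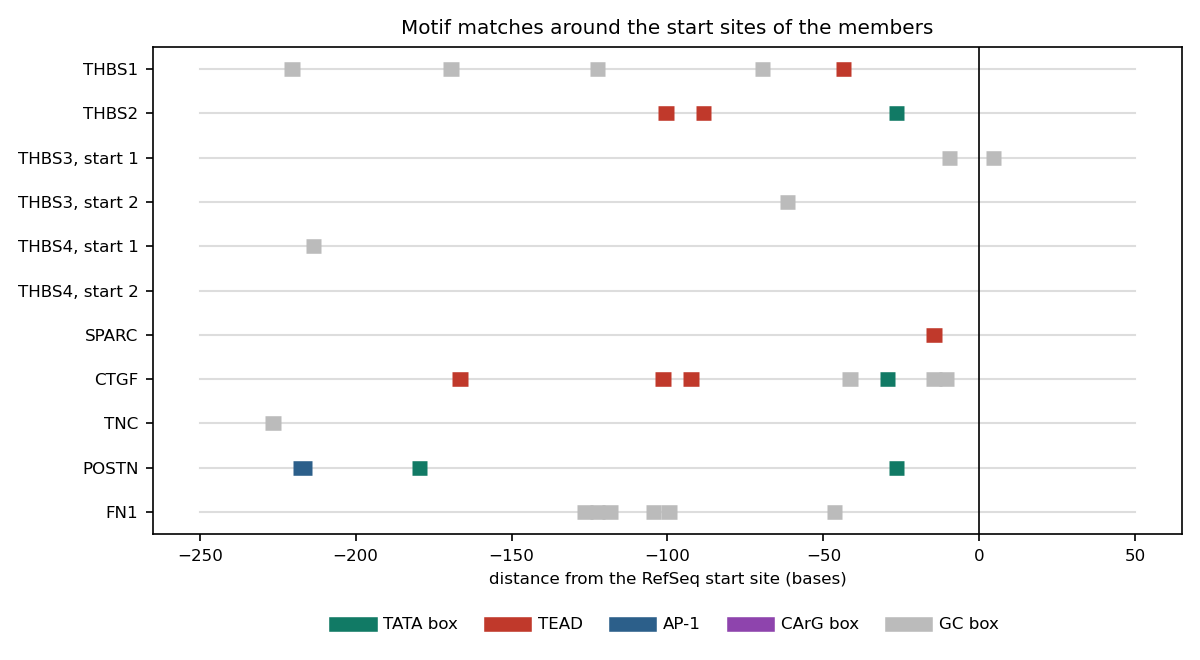
Motif matches in the 11 RefSeq start windows of 9 members, one line per start site, with the distance from the start in bases on the x axis and colored blocks for each motif on either strand. CTGF holds 3 TEAD matches and THBS2 holds 2, while the FN1 window holds 6 GC boxes and no TEAD match.

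Of the 10 members, 8 passed the filter on low counts, 6 of them fell, none rose and 2 did not pass, while TNC and POSTN were too low to be tested. Over all 15288 genes tested 38.6% were called at an adjusted p under 0.05, 20.5% as higher and 18.1% as lower. CPM values of the groups did not overlap in 7 of the 8 members, a separation that 68.6% of all tested genes showed. The median log2 fold change of the 8 members was -0.30, beside -0.01 over all tested genes. Because the comparison was known when the members were picked, these counts describe the choice. In bulk samples such as these, fewer cells making a transcript and less of it per cell cannot be told apart. Whether the labels' replicates came from separate cultures is not stated there, although the study calls them biological, and the spread between them may be technical.

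**Figure D2:**
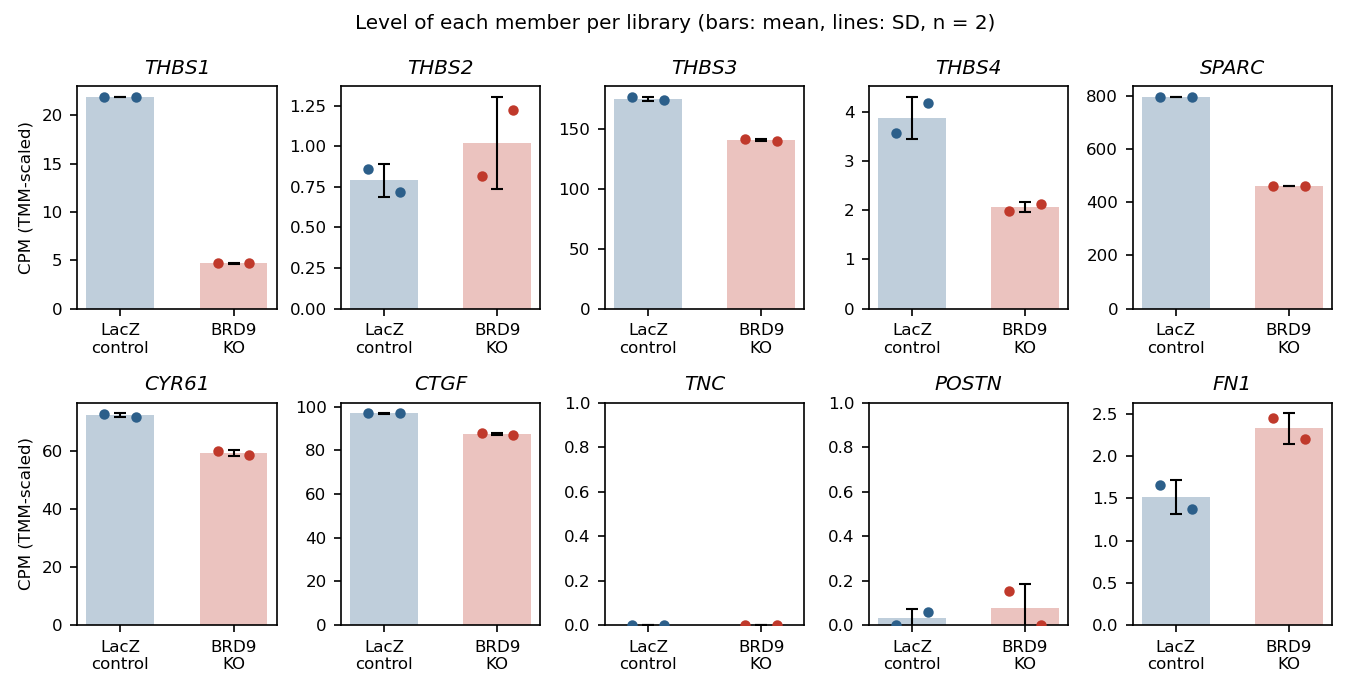
TMM-scaled CPM of the 10 members, one panel per gene with its own linear axis from 0, LacZ control in blue and BRD9 KO in red. Points are libraries, bars are means and lines are SD (n = 2), and the panels of THBS1 and SPARC show the replicates lying close together with a wide gap between groups. With 2 libraries, close replicates are not a measure of precision.

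THBS1, encoding the angiogenesis inhibitor thrombospondin-1, showed the largest change of any member. Its estimated counts were 91 and 77 in BRD9 KO replicates 1 and 2 and 331 and 365 in LacZ control replicates 1 and 2, or 4.66 and 4.71 CPM against 21.9 and 21.9 CPM. Both knockout libraries lay far below both controls, and 21.4% of the control mean remained. The log2 fold change of -2.22 (SE 0.11) placed THBS1 28th from the bottom among all tested genes ordered by log2 fold change. It lies on chromosome 15 from 39873280 to 39891667 on the plus strand (GRCh37, the sequence of hg19). It was the only tested member that differed by at least 2-fold downward, as 409 of all tested genes did. Exons of FSIP1 and THBS1-AS1 on the opposite strand cover 4.89% and 4.49% of its exon bases. FSIP1 had between 18 and 33 counts per library, and reads from the shared bases cannot be assigned to a strand because the kit named in the methods does not mark it.

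THBS2, the closest relative of THBS1 and, like it, a trimeric antiangiogenic protein, was barely expressed. It had 16 and 20 counts in BRD9 KO and 13 and 12 counts in LacZ control. In CPM the groups overlapped (0.820 and 1.22 against 0.861 and 0.719), and the log2 fold change of 0.36 (SE 0.42) did not pass the test. THBS2 spans 169615875 to 169654145 of chromosome 6, minus strand. The standard error was larger than the estimate, and a difference was not detectable at this depth. Its antisense gene THBS2-AS1 shares 31.2% of its exon bases and had between 5 and 10 counts.

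The pentameric thrombospondins THBS3 and THBS4, which lack the antiangiogenic repeats of the trimeric pair, both fell, from very different levels. For THBS3 the knockout libraries held 141 and 140 CPM and the controls 176 and 174 CPM. The groups were clearly apart, 80.3% of the control mean remained, and the log2 fold change was -0.32 (SE 0.03). THBS3 spans 155165379 to 155178842 of chromosome 1, minus strand, next to MTX1, which shares 3.16% of its exon bases and showed a log2 difference of -0.01 (edgeR adjusted p = 0.881). THBS3-AS1, listed in the tables under a clone name, shares 25.9% of the THBS3 exon bases on the opposite strand and was lower as well, at 78 and 67 counts in BRD9 KO against 101 and 94 in LacZ control (log2 fold change -0.60, edgeR adjusted p = 0.00766). Without strand these paired values cannot be told apart.

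THBS4, a thrombospondin of muscle and tendon matrix, had 39 and 35 counts in BRD9 KO and 54 and 70 counts in LacZ control. These were 1.998 and 2.14 CPM against 3.58 and 4.19 CPM, with no overlap, and the log2 fold change was -0.91 (SE 0.22). In TPM the groups lay much closer together, at 3.42 and 2.85 in BRD9 KO and 3.69 and 3.76 in LacZ control, so that 84.2% of the control mean remained in TPM and 53.3% in CPM. THBS4 no longer passed on the log2(TPM + 1) scale in limma, where the difference was -0.20, nor with DESeq2, nor when LacZ control replicate 2 was left out (-0.79). The gene lies on chromosome 5 from 79287134 to 79379110 on the plus strand.

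SPARC, also called osteonectin, binds collagen and was by far the most abundant member. Its knockout values were 460.3 and 462 CPM, and its control values 798 and 799 CPM. Replicates lay within a few CPM of each other in both groups. The means were 461 ± 1.26 and 798 ± 0.476 CPM (SD, n = 2), 57.8% of the control level remained, and the log2 fold change was -0.79 (SE 0.01). An SD from 2 libraries can fall below counting error and is not a measure of precision. In TPM, SPARC ranked 124th of all gene models in LacZ control and 196th in BRD9 KO. SPARC spans 151040657 to 151066536 of chromosome 5, minus strand. An antisense gene across 4.12% of its exon bases had at most 6 counts in a library.

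CYR61 and CTGF, CCN proteins that bind integrins and heparan sulfate, fell by the smallest amounts. CYR61 had 60.0 and 58.5 CPM in the knockout libraries and 72.7 and 71.7 CPM in the controls, with 82.1% of the control mean left and a log2 fold change of -0.28 (SE 0.04). CTGF had 87.9 and 87.2 CPM in the knockout libraries and 96.8 and 97.0 CPM in the controls, with 90.3% left and a log2 fold change of -0.15 (SE 0.03). In neither gene did the groups overlap. The CTGF call was lost with DESeq2 and on the log2(TPM + 1) scale. CYR61 spans 86046444 to 86050272 of chromosome 1 (plus strand) and CTGF spans 132269316 to 132272512 of chromosome 6 (minus strand).

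FN1, the fibronectin gene, was near the limit of testing in these cells. It had 48 and 36 counts in BRD9 KO and 25 and 23 counts in LacZ control, or 2.46 and 2.20 CPM against 1.66 and 1.38 CPM. The knockout values lay above the controls in CPM, but the log2 fold change of 0.62 (SE 0.28) did not pass the test. In TPM the groups overlapped (1.85 and 2.82 against 2.34 and 1.77). FN1 passed under 1 alternative, a stricter filter that tested fewer genes. FN1 spans 216225163 to 216300796 of chromosome 2, minus strand.

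TNC and POSTN, glycoproteins of remodeling and wound matrix, were at or near 0. TNC (chromosome 9, 117781854 to 117880486, minus strand) had no read in any library, and a count of 0 allows up to 0.153 CPM in the deepest and 0.199 CPM in the shallowest library, for counting error only. POSTN (chromosome 13, 38136720 to 38172981, minus strand) had 3 and 0 counts in BRD9 KO and 0 and 1 counts in LacZ control. No difference could be detected for either.

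**Figure D3:**
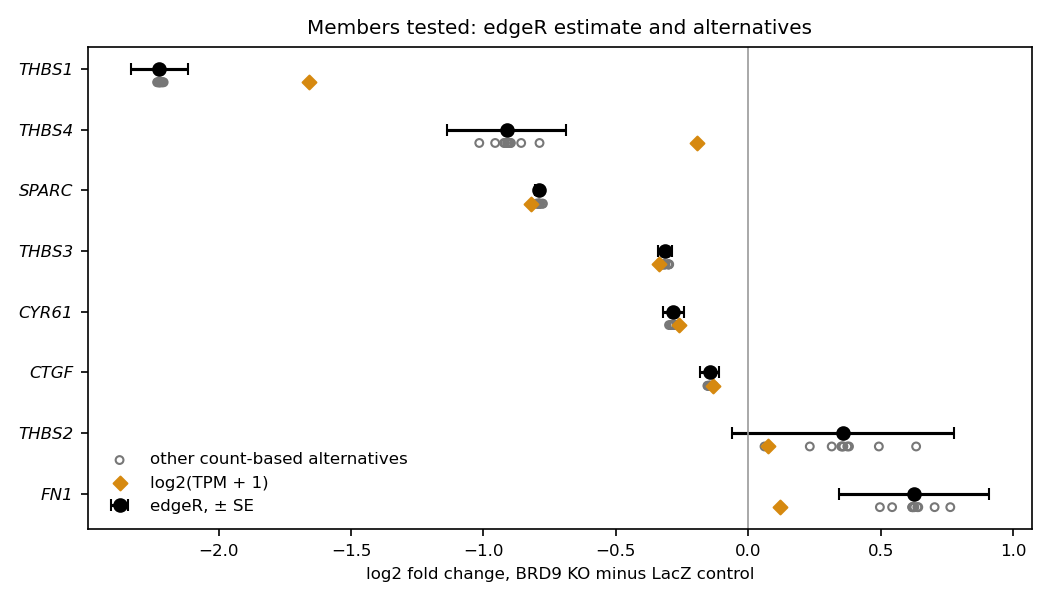
Log2 fold change (BRD9 KO minus LacZ control) of the 8 tested members on the x axis. Black points are the edgeR estimates with their standard errors, open circles the other count-based alternatives and orange diamonds limma on log2(TPM + 1), which moves THBS4 from -0.91 to -0.20 and FN1 from 0.62 to 0.12.

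Levels can be compared between genes per length, in TPM. Averaged over the libraries, the order was SPARC, THBS3, CTGF, CYR61, THBS1, THBS4, FN1, THBS2, POSTN and TNC, and FPKM gave the same order. In LacZ control the means were 1060 TPM for SPARC, 130 for THBS3, 70.6 for CTGF, 54.6 for CYR61, 7.04 for THBS1, 3.73 for THBS4 and 2.06 for FN1. In BRD9 KO they were 601, 102, 64.2, 45.4, 1.56, 3.14 and 2.34 TPM. In TPM, THBS1 stood above THBS4 and FN1 in every control library and below both in every knockout library. In CPM, which is not adjusted for length, THBS1 stayed above both in BRD9 KO. The values were 4.66 and 4.71 CPM against 1.998 and 2.14 for THBS4 and 2.46 and 2.20 for FN1. The knockout order in TPM therefore depends on weighted transcript lengths, which for THBS4 and FN1 rest on low counts. Ranges of THBS2 (0.21 to 0.35 TPM) and POSTN (0.00 to 0.32 TPM) overlapped, so their order is not settled. SPARC made up 79.7% and 79.9% of the summed TPM of the members in LacZ control and 73.1% and 73.4% in BRD9 KO. That sum was 1327 and 1330 TPM in LacZ control and 817 and 823 TPM in BRD9 KO.

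The tables also hold the length that RSEM gives each gene. That length rests on the same transcript shares as the gene's TPM, so it is not independent of the values behind the choice. It is an average over its listed transcripts weighted by their estimated shares. For THBS4 it was 1044 and 1320 bases in BRD9 KO and 1675 and 1912 bases in LacZ control, against a longest listed transcript of 3222 bases in GENCODE v44. The groups did not overlap. TPM divides by effective length, which follows the same transcript shares, so the THBS4 values in TPM are not independent of these lengths. For THBS1 the lengths overlapped (5975 and 4386 bases in BRD9 KO, 4990 and 5437 in LacZ control). SPARC showed 1355 and 1345 bases in BRD9 KO against 1321 and 1312 in LacZ control, and THBS3 showed 2354 and 2366 against 2327 and 2281, small shifts without overlap. FN1, whose longest listed transcript has 9171 bases, had weighted lengths of 2279 and 1372 bases in BRD9 KO and 1244 and 1354 in LacZ control. These also did not overlap, and they rest on 23 to 48 counts per library. CTGF, with 1 listed transcript, had the same length throughout, and the weighted length of THBS2 equalled its longest model of 5811 bases in every library. With 2 libraries a group, these lengths are described without a test. The share of all genes whose lengths separate between the groups was not determined.

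**Figure D4:**
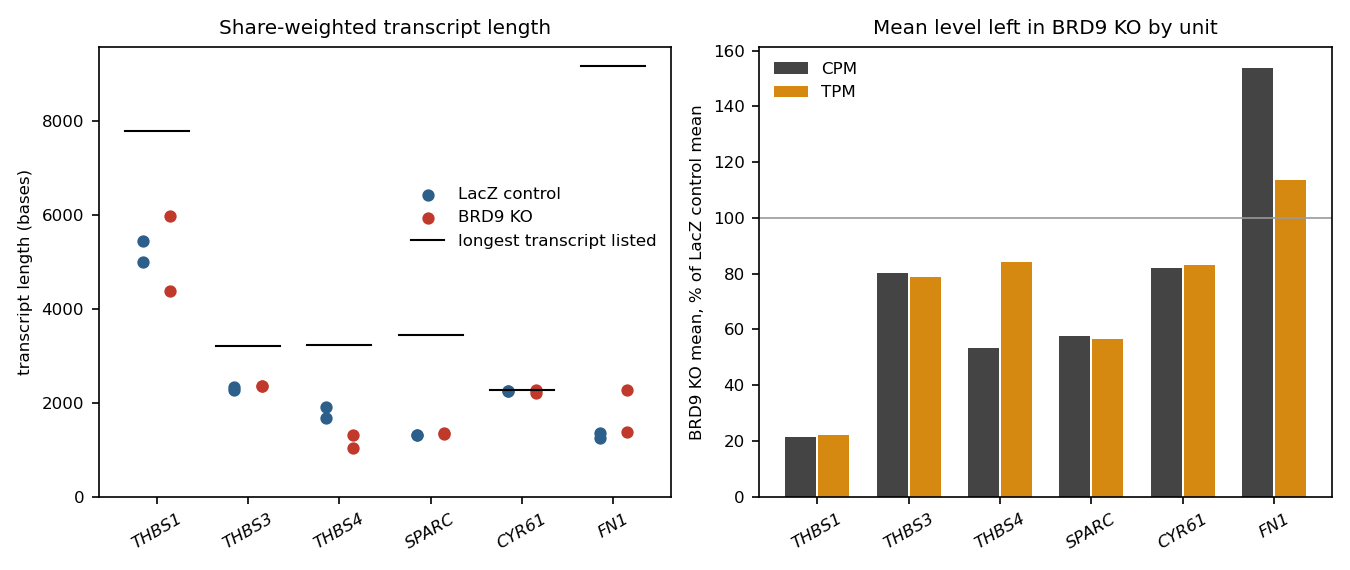
Left, share-weighted transcript length in bases of 6 members per library, with the longest listed transcript as a black line. Right, BRD9 KO mean as a percentage of the LacZ control mean in CPM and in TPM, which differ for THBS4 (53.3% and 84.2%) and FN1 (154% and 114%) and are close for the other genes plotted, all of them tested members.

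The genes whose 4 values ran most like those of THBS1 were UTRN (utrophin, a dystrophin relative), AF131217.1 and ANKRD34B, by the Euclidean distance of centered log2 CPM among 11213 genes of at least 5 CPM on average. UTRN stood at 2.56 and 2.38 CPM in BRD9 KO and 12.1 and 10.5 CPM in LacZ control, at a distance of 0.20. AF131217.1 lay at 0.24 (3.84 and 4.22 against 17.7 and 15.6 CPM) and ANKRD34B at 0.47 (17.8 and 18.4 against 59.8 and 55.9 CPM). With 4 libraries in 2 groups, this measure mostly ranks genes by the size of their difference.

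Other genes of these families were for the most part not expressed. Of 17 further matricellular genes 4 were tested, 0 rose and 2 fell, and 6 had 0 counts in all libraries. Over all tested genes 20.5% were called higher and 18.1% lower. SPP1, encoding osteopontin, fell from 30.8 to 12.5 CPM on average (log2 fold change -1.30, edgeR adjusted p = 1.1e-10). TNXB, encoding tenascin-X, stood at 2.14 CPM in LacZ control and 1.02 CPM in BRD9 KO (log2 fold change -1.05, edgeR adjusted p = 0.0141). TNXB missed the threshold with DESeq2 (adjusted p = 0.122), with limma on log2(TPM + 1), and in the edgeR refits that left out BRD9 KO replicate 2 (adjusted p = 0.104), LacZ control replicate 1 (0.0783) or LacZ control replicate 2 (0.0888).

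Several receptors of the members were higher in BRD9 KO cells. Of 21 receptors 14 were tested, and of these 10 rose and 2 fell, beside 20.5% and 18.1% over all genes. The median log2 fold change was 0.20. The rises ran from 0.12 to 1.01 in log2, and the 2 falls were -0.05 and -0.07. ITGAV, the integrin chain that pairs to bind RGD-containing proteins such as fibronectin, rose from 821 to 1162 CPM (log2 fold change 0.50, edgeR adjusted p = 2.22e-17). ITGA6, a laminin-binding chain that also binds CCN proteins, rose by 0.92 in log2 (edgeR adjusted p = 1.81e-10). SDC1, the heparan sulfate proteoglycan syndecan-1, rose from 28.5 to 50.5 CPM (log2 fold change 0.82, edgeR adjusted p = 1.16e-09). On the log2(TPM + 1) scale 4 receptors passed.

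Of 12 tested fibulins, fibrillins and other matrix glycoproteins 5 rose and 3 fell (median 0.14), beside 20.5% and 18.1% over all genes. FBLN1 fell from 168 to 125 CPM (edgeR adjusted p = 1.73e-09), whereas FBLN5, an elastic fiber protein, rose from 15.6 to 28.4 CPM (edgeR adjusted p = 2.25e-08) and the basement membrane gene NID1 rose from 136 to 165 CPM (edgeR adjusted p = 1.55e-07). Of 15 tested genes of fibrillar collagens and their processing 3 rose and 5 fell (median -0.04), beside the same 20.5% and 18.1%. COL1A1 fell from 330 to 163 CPM, COL1A2 from 527 to 196 CPM and COL11A1 from 3300 to 2559 CPM (edgeR adjusted p = 5.88e-18, 7.73e-21 and 4.97e-18). SPARC binds fibrillar collagens of this kind.

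Genes around TGF-beta, which thrombospondin-1 can activate, went both ways, with 5 of 14 tested members higher and 2 lower (median 0.05). The shares over all tested genes were 20.5% higher and 18.1% lower. LTBP4, which holds latent TGF-beta in the matrix, fell by 0.52 in log2 (edgeR adjusted p = 7.85e-12). BHLHE40, a transcription repressor, rose from 34.98 to 71.1 CPM (edgeR adjusted p = 2.41e-12). Of 16 tested YAP/TEAD target genes other than the members 7 rose and 5 fell (median 0.08), beside the same 20.5% and 18.1%. AMOTL2 and AMOTL1, angiomotins that restrain YAP, fell by 0.20 and 0.18 (edgeR adjusted p = 1.13e-06 and 1.76e-07), and FJX1 rose by 0.76 (edgeR adjusted p = 1.42e-07). The AMOTL1 call was lost on the log2(TPM + 1) scale (adjusted p = 0.0654). The part of YAP and TEAD in the CYR61 and CTGF differences was not tested.

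Of 16 tested SRF and MRTF target genes 3 rose and 8 fell (median -0.08), beside 20.5% and 18.1% over all genes. FLNA (filamin A) and TAGLN (transgelin), both actin-binding, fell by 0.23 and 0.30 (edgeR adjusted p = 6.05e-12 and 2.18e-08), and FHL2 rose by 0.48 (edgeR adjusted p = 1.57e-09). Of 9 tested proteases and inhibitors that act on matricellular proteins 4 rose and 3 fell (median 0.06), beside the same 20.5% and 18.1%. ADAMTS1, a protease that cleaves thrombospondins, fell from 290 to 202 CPM (edgeR adjusted p = 3.18e-13). PLAU, encoding urokinase, rose from 493 to 793 CPM (edgeR adjusted p = 4.15e-18), and the cathepsin gene CTSB rose by 0.27 (edgeR adjusted p = 1.23e-08). These lists were drawn up with results of the comparison known, and their counts are a description.

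**Figure D5:**
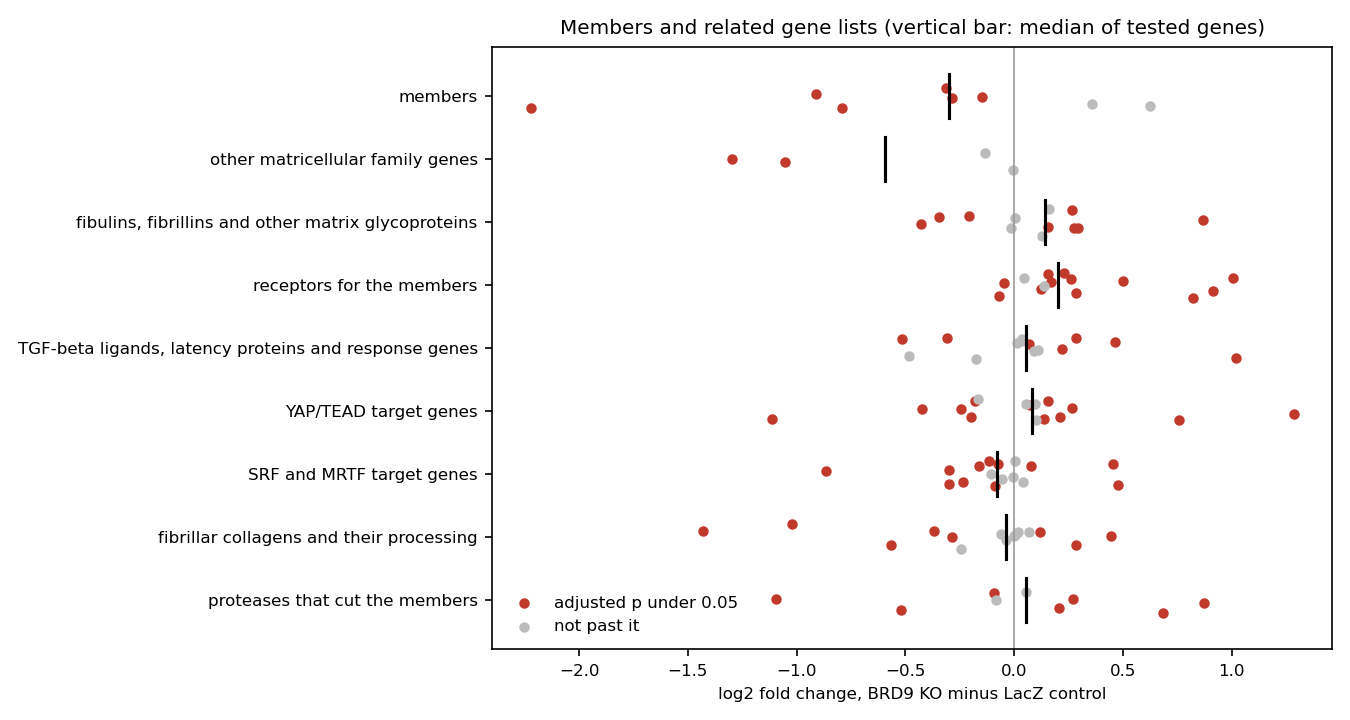
Log2 fold change (BRD9 KO minus LacZ control) of the tested members and of the tested genes of 8 related lists, one point per gene, red where the adjusted p was under 0.05 and gray otherwise. The black bar is the median, which is -0.30 for the members and 0.20 for their receptors.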

How the data were processed

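RNA-seq of 4 libraries was used, 2 per group by their titles. Per the study's methods, STAR mapped the reads to hg19 and RSEM did the quantification. The submitters' notes also name DESeq2. The sources used here give no versions and no annotation. The labels name a Direct-zol extraction, the methods Trizol with column cleanup. The authors deposited the expected count (estimated count) per gene, not scaled between libraries, and the TPM and FPKM values, which RSEM divides by effective length. The deposited share-weighted length and posterior SD of the count were also read, and the latter reached 0.574% of the count at most among the members.

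Expected counts were rounded and tested with the quasi-likelihood test of edgeR 4.0.16 (R 4.3.3), with TMM scaling, filterByExpr (15288 genes kept), two-sided, Benjamini-Hochberg over all genes. A gene was called at an adjusted p under 0.05. Standard errors (SE) are the absolute log2 fold change over the square root of the F statistic. The script was checked on simulated data. Alternatives were DESeq2 1.42.0, limma-voom (limma 3.58.1), limma on log2(TPM + 1), RLE size factors, library totals alone, no filter, at least 1 CPM in all 4 libraries, a replicate block, leaving out each library in turn, and an adjusted p under 0.01. A library left out leaves 1 in its group, assumed to vary like the other group.

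Replicates differed by a chi-square of 1.59 (BRD9 KO) and 1.62 (LacZ control) per degree of freedom, above sampling noise, and were kept apart. Loci and exon overlaps come from GENCODE v44 on GRCh37, promoters from RefSeq on GRCh38.p14, matched by symbol or synonym. The members and lists were chosen with earlier results of these data known. Named genes are the members, BRD9, up to 3 called genes per list with the smallest p, the 3 genes nearest to THBS1 and genes whose exons overlap a member, and 1 gene that this rule names is not reported here. A planned protein comparison was not run, since no protein table was used here.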

Additional observations from a re-analysis of the deposited data

How the results depend on the processing

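The count of members past the threshold was 6, and between 4 (DESeq2 and log2(TPM + 1)) and 7 (the stricter filter, which added FN1) over the alternatives. THBS1, THBS3, SPARC and CYR61 were called with the same direction in all 12 refits. THBS1 ran from -2.23 to -1.66, the latter on the log2(TPM + 1) scale. THBS2 passed in none, with log2 fold changes from 0.06 without BRD9 KO replicate 2 to 0.63 without BRD9 KO replicate 1. The whole-table count of changed genes was 5901, 3573 with DESeq2, 2444 on the log2(TPM + 1) scale and between 4195 and 4960 with a library left out. Changed genes over the 8 related lists numbered 67, and 39 by limma on log2(TPM + 1). There the receptors went from 12 to 4, the YAP/TEAD targets from 12 to 5, the SRF and MRTF targets from 11 to 7 and the fibulin list from 8 to 5, and the other matricellular genes went from 2 to 1 in 6 alternatives. The cause was not tested. Replicate numbers were shared by the groups, but same-numbered libraries did not deviate together (correlation -0.05). With the replicate block 6109 genes, the same number of members (6) and 67 related genes passed. The precision of THBS2, THBS4, FN1 and POSTN is limited by their low counts.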
